A study of Mus musculus with 6 samples.

Results

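The mouse genome carries a family of trypsinogen genes, and 7 of them are described here: Prss1, Prss2, Prss3, Try4, Try5, Try10 and Gm5771. They were chosen by name, and all 7 were found by Ensembl identifier among the 55414 genes of each count table. Each of the 7 also passed the filter on low counts and was tested. The family was read in 6 RNA sequencing libraries of untreated pancreatic acinar cells from adult mice, 3 control and 3 with a Trip12 knockout. The controls had the genotype Pdx1Cre;Trip12+/+ and the knockouts Pdx1Cre;Trip12fl/fl, so that all 6 carried the Pdx1-driven Cre recombinase. Pdx1 is active in the progenitors of the whole pancreas, so this Cre also acts in duct and islet lineages. TRIP12 is a ubiquitin ligase, and the study asked how its loss alters expression in these cells. The mouse strain is not given in the sources used here, and the tumour cell lines that the design text mentions were not analysed here.

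Trypsinogen is the inactive precursor of trypsin, which acinar cells store in zymogen granules and secrete into the gut. There enteropeptidase cuts off a short activation peptide behind a run of aspartates and a lysine, and the trypsin formed activates the other pancreatic zymogens and more trypsinogen. Activation inside the acinar cell can injure the pancreas, and trypsin inhibitors and degrading proteases hold it in check.

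The activation site is shown because it is what makes these genes trypsinogens and because Gm5771, the member with the largest difference below, departs from the rest there. The stretches are coding sequence, 5′ to 3′, from GENCODE M21 transcripts of the GRCm38 build, starting at base 34 of the coding sequence. Capitals mark the run of aspartate codons (GAT or GAC) and the lysine codon after which enteropeptidase cuts.
Prss1: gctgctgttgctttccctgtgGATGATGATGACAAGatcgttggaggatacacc
Prss2: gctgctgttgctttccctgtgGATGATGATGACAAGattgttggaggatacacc
Prss3: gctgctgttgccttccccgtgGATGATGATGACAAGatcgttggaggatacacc
Try4: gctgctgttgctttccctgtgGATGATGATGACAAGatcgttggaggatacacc
Try5: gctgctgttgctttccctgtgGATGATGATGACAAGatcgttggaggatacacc
Try10: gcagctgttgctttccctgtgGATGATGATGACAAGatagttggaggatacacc
Gm5771: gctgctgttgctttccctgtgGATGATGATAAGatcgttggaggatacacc
The run held 4 aspartate codons in 6 members and 3 in Gm5771, whose coding sequence was 738 bases long against 741 in the others. The related gene 2210010C04Rik, also known as Prss3b, had 5. Over the whole coding sequence the 21 pairs of members were 88.5% to 97.6% identical, with a median of 92.2%. Prss1 and Gm5771 formed the closest pair at 97.6%, and Try4 and Try5 followed at 97.4%.

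Gene counts ran from 31019500 to 34041901 per library. Trip12 itself stood at 29.0, 22.3 and 26.4 CPM (normalised read counts, scaled to library size with edgeR's TMM factors) in the controls, in the order of their replicate numbers, against 14.4, 14.7 and 13.0 CPM in the knockouts. Values of single libraries are given in this order throughout. It fell by 0.89 on the log2 scale (SE 0.14, Benjamini-Hochberg adjusted p = 0.0256, edgeR). Counts over the whole gene do not show which exons the knockout allele lacks. The acinar enzyme Cpa1 stood at 43252 CPM or more in every library, and the acinar transcription factors Ptf1a, Rbpjl, Bhlha15 and Nr5a2 had counts in all 6. Markers of other cell types were present in both groups, far below Cpa1. None of the 8 duct, 8 islet, 12 leukocyte and 10 stromal and endothelial markers was at 0 in any library. Ins2 ran from 203 to 279 CPM in control, above Prss3 and Gm5771 there, and from 134 to 507 CPM in knockout. The summed levels of each marker list overlapped between the groups, but single markers did not all. They ran from 202 to 243 CPM in control and 189 to 283 CPM in knockout for duct, and from 352 to 458 and 242 to 906 CPM for islet. Leukocyte markers summed to 26.3 to 156 CPM in control and 24.6 to 112 CPM in knockout, and stromal and endothelial markers to 32.7 to 131 and 39.6 to 152 CPM. None of these markers passed the edgeR test, where 6 of 8 duct, 2 of 8 islet, 1 of 10 leukocyte and 0 of 10 stromal and endothelial markers tested had an unadjusted p under 0.05, beside 16.7% of all tested genes. In 5 duct markers the groups did not overlap. With the replicate number as a block, 3 duct markers (Krt7, Spp1 and Epcam), 1 islet marker (Pcsk2) and 4 leukocyte markers (Adgre1, C1qa, C1qb and C1qc) were called higher in knockout and 2 duct markers (Krt19 and Muc1) lower. DESeq2 called 1 duct and 1 islet marker higher and 2 duct markers lower. Log2 fold changes were above 0 in 7 of 8 islet markers and in all 10 stromal and endothelial markers, of which 2 stayed above 0 with sex as a covariate. Xist and Y-linked gene counts showed 1 male control (replicate 1), 2 female controls and 3 male knockouts, a mixture the labels do not mention. Since no knockout was female, the group difference with sex as a covariate rests on the male control alone, here and below. Without control replicate 1 the remaining controls are female and the knockouts male, so that fit cannot separate group from sex. With the replicate block, replicates 2 and 3 each set a female control against a male knockout. The part of these other cells in the trypsinogen values was not tested.

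The family's output rested on 3 genes. Prss2, Try4 and Try5 together gave 99.2% to 99.4% of the family's reads in control and 98.2% to 98.7% in knockout. Per kilobase of transcript, Prss2 averaged 66532 CPM ± 10401 (SD, n = 3) in control and Try4 52412 CPM ± 8730, and their libraries overlapped. Try5 followed at 12580 CPM ± 1866 per kilobase and Try10 at 693 CPM ± 151. Prss3 stood at 138 CPM ± 33.2 per kilobase, Gm5771 at 21.3 CPM ± 3.71 and Prss1 at 3.71 CPM ± 1.71, so that the family spanned 4 orders of magnitude. Apart from Prss2 and Try4, no neighbours in this order overlapped in control. In knockout Prss3, at 1016 CPM ± 218 per kilobase, lay above Try10 at 366 CPM ± 55.6, and the libraries of these 2 genes did not overlap. Prss2 (42098 CPM ± 6791) and Try4 (42144 CPM ± 2525) overlapped again, with means that no longer stood in the control order. All values that follow are CPM per gene, not per kilobase.

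**Figure D1:**
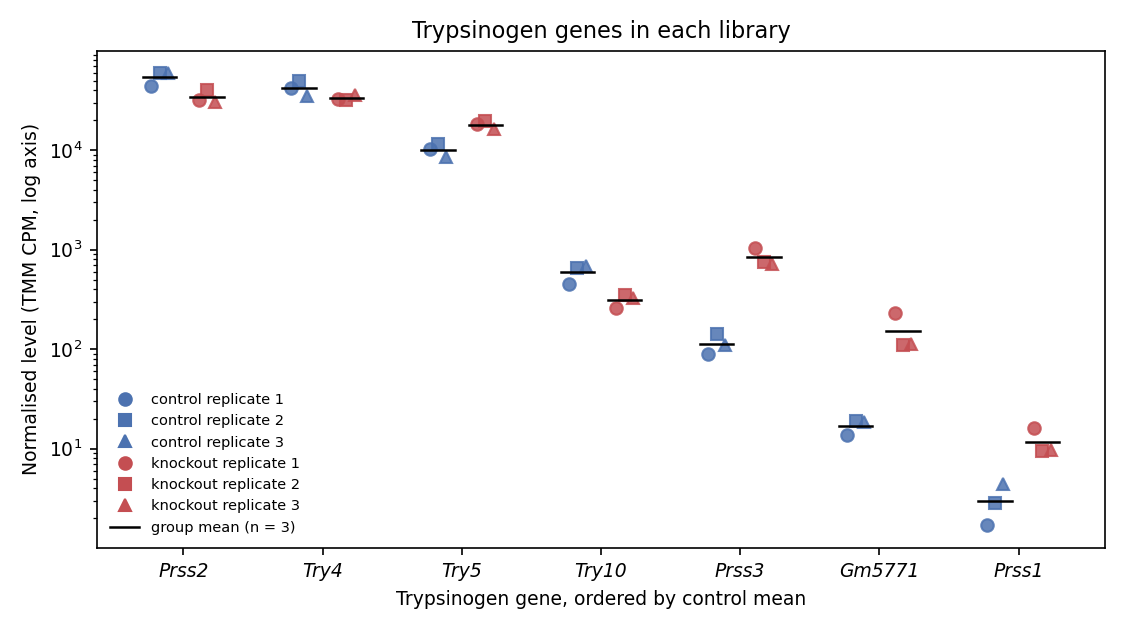
Normalised level (TMM CPM, log axis) of the 7 trypsinogen genes in each library, with control replicates in blue, knockout replicates in red and the group mean as a black line (n = 3). Prss3 and Gm5771 lie several-fold higher in all 3 knockout libraries, Try4 is the 1 gene whose groups overlap, and the family spans from 1.70 CPM to 59168 CPM.

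Trip12 knockout acinar cells carried more Prss3 and Gm5771 RNA, while the abundant members differed less. By edgeR's quasi-likelihood test, 2 of the 7 members passed an adjusted p under 0.05, both higher in knockout. Over all 13115 tested genes 0.945% passed, 0.465% higher and 0.48% lower. With the replicate number as a block, 4 of 7 passed, Prss3, Gm5771 and Try5 higher and Try10 lower, against 5.98% of all tested genes (3.39% higher and 2.58% lower). The median log2 fold change of the 7 was 0.84, beside 0.02 over all tested genes. In 6 of 7 the groups did not overlap in TMM CPM, beside 22.9% of all tested genes. For Prss2 the groups overlapped as a share of all gene counts. In RNA from a whole preparation, fewer cells with a transcript and less of it per cell cannot be told apart.

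Prss3, a minor trypsinogen in control, reached 1041, 747 and 718 CPM in the knockout libraries, where the controls held 89.0, 143 and 109 CPM. The lowest knockout library was several times above the highest control, and the male control was the lowest of the 3, farthest from the male knockouts. The mean rose from 114 CPM ± 27.3 to 836 CPM ± 179 (SD, n = 3), a 7.35-fold ratio. The log2 fold change was 2.88 (SE 0.25, Benjamini-Hochberg adjusted p = 0.00167, edgeR). It ranked 23 of 13115 genes by log2 fold change. The call held in each of the 6 fits that left out 1 library, with adjusted p from 0.00106 to 0.0129 in the same edgeR test. With sex as a covariate, where the male control alone is set against the knockouts, the log2 fold change was 3.23.

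Gm5771, a predicted gene that encodes a trypsinogen-like protein, was counted 433, 465 and 505 times in the controls against 8620, 3884 and 4248 times in the knockouts. Normalised, the controls held 13.6, 19.1 and 18.3 CPM against 231, 111 and 114 CPM in the knockouts. Knockout replicate 1 was the highest for Gm5771, as it was for Prss3, and all 3 knockouts lay above all controls. The mean rose from 17.02 CPM ± 2.96 to 152 CPM ± 68.4 (SD, n = 3), an 8.92-fold ratio and the 14th highest log2 fold change of all tested genes, at 3.16 (SE 0.33, Benjamini-Hochberg adjusted p = 0.00991, edgeR). The call was lost without control replicate 2 (3.24, adjusted p = 0.0729, edgeR), without control replicate 3 (3.21, adjusted p = 0.0596) and with sex as a covariate (3.48, adjusted p = 0.142).

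Prss1, the gene that carries the name of the main human cationic trypsinogen, was the weakest member in both groups. The controls held 1.70, 2.83 and 4.43 CPM of it against 16.2, 9.41 and 9.78 CPM in the knockouts, and every knockout lay above every control. The log2 fold change was 1.99 (SE 0.38), but the adjusted p was 0.0698 in edgeR with Benjamini-Hochberg adjustment. These unstranded counts of 54 to 605 reads leave out 40.8% to 74.0% of the reads assigned to Prss1 in the strand columns. The first strand held 50.1% to 50.3% of stranded counts per library, so strand does not show whether those reads are Prss1's own. With both strand columns summed, Prss1 was counted 208, 209 and 206 times in the controls against 1276, 978 and 792 times in the knockouts. On that count, chosen after seeing the data, its log2 fold change was 1.87 (adjusted p = 0.00443, edgeR). There 1.19% of 14536 genes passed, 0.599% higher in knockout. The sum includes the reads that strand cannot assign, so this call does not show a Prss1 difference beyond the main fit. The call was also made without control replicate 1 (1.67, adjusted p = 0.0396, edgeR), where group and sex coincide.

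Try5, the least abundant of the 3 main members, rested at 10187, 11513 and 8530 CPM in the controls against 18277, 19592 and 16264 CPM in the knockouts. The groups stood well apart, with means of 10077 CPM ± 1495 and 18044 CPM ± 1676 (SD, n = 3). The log2 fold change was 0.84 (SE 0.18), with a Benjamini-Hochberg adjusted p of 0.0684 in edgeR, 0.0174 with the replicate block and 0.0462 without control replicate 1. Try10 had lower values in the knockouts, with 447, 657 and 685 CPM in the controls against 262, 354 and 329 CPM in the knockouts. Its groups also did not overlap, and its log2 fold change was -0.92 (SE 0.21). The adjusted p was 0.0857 in edgeR, 0.0109 with the block and 0.0132 without control replicate 1. Without that replicate group and sex coincide, for Try5 as well. The male control, at 447 CPM, lay nearest to the knockouts, and with sex as a covariate the log2 fold change was -0.50 (adjusted p = 0.443, edgeR). Scaled to library totals instead of by TMM, it was -0.48.

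Prss2, the most abundant member in control, stood at 44436, 59067 and 59168 CPM there against 31838, 40650 and 30442 CPM in the knockouts. In TMM CPM all knockouts lay below all controls, but the gap between the closest libraries was small beside the spread within each group. As a share of all gene counts the groups overlapped. Knockout replicate 2 held 1425173 Prss2 reads of 31320636, and control replicate 1 held 1411938 of 31265033. The log2 fold change was -0.66 (SE 0.20, Benjamini-Hochberg adjusted p = 0.151, edgeR). In edgeR without control replicate 1, where group and sex coincide, the adjusted p was 0.0331. It was 0.00502 in DESeq2's Wald test, which called 3.72% of 14251 genes. The male control, at 44436 CPM, lay nearest to the knockouts, and with sex as a covariate the log2 fold change was -0.37 (adjusted p = 0.558, edgeR). With library totals it was -0.23. The controls held 41780, 49074 and 35092 CPM of Try4 against 32967, 32249 and 36056 CPM in the knockouts. It was the 1 member whose groups overlapped in TMM CPM, at a log2 fold change of -0.31 (SE 0.18, adjusted p = 0.427, edgeR). Library totals in place of TMM factors turned this value to 0.10. The same replacement moved the median of all tested genes from 0.02 to 0.43 and kept the direction of the other 6 members.

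As a share of all gene counts the 7 genes together took 9.85%, 9.46% and 8.38% in the controls against 10.1%, 10.5% and 9.74% in the knockouts. The exact 95% Clopper-Pearson interval of the first, 9.84% to 9.86%, shows how small the counting error is. The control mean of 9.23% ± 0.764 (SD, n = 3) compares with a knockout mean of 10.1% ± 0.376, higher by 0.875 percentage points. The direction depended on the scaling. In TMM CPM the family summed to 107012 ± 12125 in control and 87426 ± 5456 in knockout, and per 100 counts outside a list of digestive enzymes and granule proteins the knockout mean was lower by 8.73 counts (knockout minus control -8.73). No direction for the family as a whole is therefore given.

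Within the family, shares do not depend on that scaling. Try5 took 9.43% ± 1.14 (SD, n = 3) of the family's reads in control and 20.6% ± 1.14 in knockout. Prss2 went from 50.7% ± 5.81 to 39.1% ± 3.77. Try4 stood at 39.2% ± 4.79 and 38.8% ± 4.27 (exact permutation test, two-sided, p = 0.9), and Prss3 at 0.105% ± 0.0134 and 0.961% ± 0.235. Each share other than that of Try4 gave p = 0.1, the smallest that an exact two-sided permutation test of 3 against 3 allows, and 0.117 after Benjamini-Hochberg adjustment over the 7 shares. Try10 held 0.556% ± 0.101 in control and 0.360% ± 0.0443 in knockout. Per Try4 read there were 0.241 ± 0.00512 Try5 reads in control and 0.538 ± 0.0795 in knockout, so that the balance of these near-identical genes differed by more than the spread between libraries. A smaller share can come from other members' larger ones, since the shares sum to a fixed total.

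**Figure D2:**
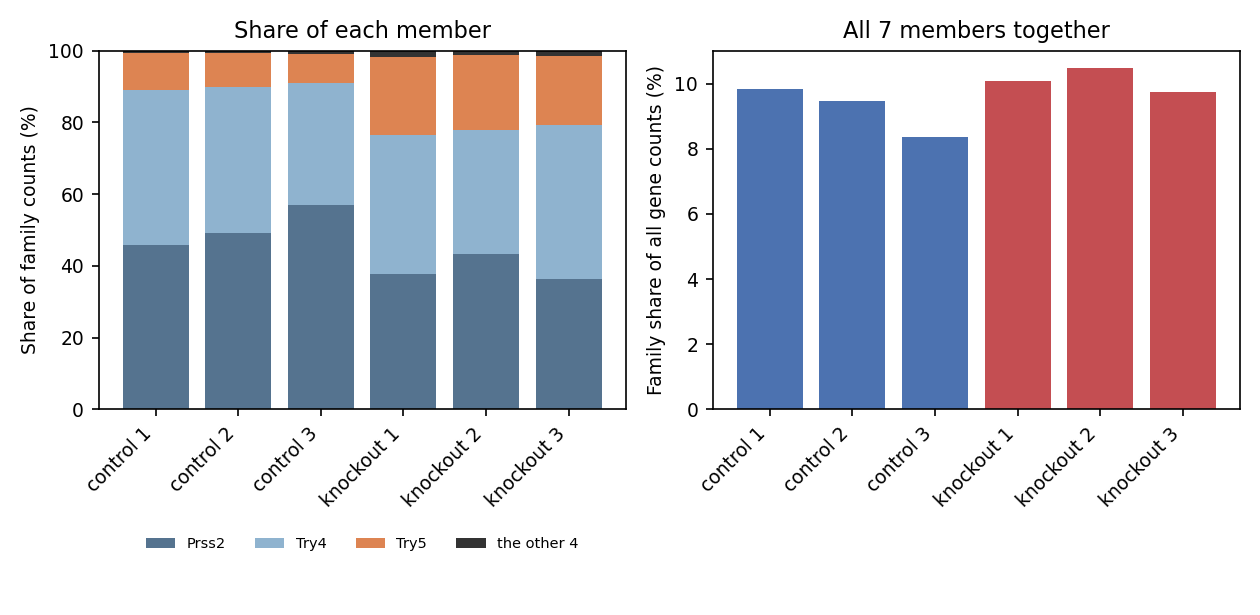
Left, the percent of the family's reads that fell to Prss2, Try4, Try5 and the other 4 members in each library. Right, the family's percent of all gene counts in control (blue) and knockout (red) libraries. Try5 averages 20.6% of the family in knockout and 9.43% in control, while the family's share of all counts stays between 8.38% and 10.5%.

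In the GRCm38 annotation the 7 genes lie on chromosome 6 among T cell receptor beta gene segments, 33 of which separate them from 3 trypsinogen-like genes on the far side. The order of the members and their relatives is Try4, Try5, Try10, Prss3, Gm5771, Gm5409, Gm10334, Prss1 and Prss2. The middle 5, from Prss3 to Prss1, had positive log2 fold changes with groups that did not overlap, whichever strand they lie on. This stretch was chosen after its values were seen, and 11.9% of all tested genes were higher in knockout without overlap. Of these 5, Prss3 and Gm5771 passed the edgeR test. The coding sequences of Prss3, Gm5771, Gm10334 and Prss1 were 96.2% to 99.1% identical to each other. How many reads of Prss3, the most abundant of them, were placed on the others was not tested. Gm10334, a close copy of Prss3, went from a mean of 4.49 CPM ± 1.92 (SD, n = 3) to 9.82 CPM ± 2.12. Its log2 fold change was 1.13 (SE 0.35, Benjamini-Hochberg adjusted p = 0.180, edgeR). The pseudogene Gm5409 averaged 1.55 CPM ± 0.735 and 3.11 CPM ± 0.678 (log2 fold change 1.00, SE 0.39, adjusted p = 0.254, edgeR, and 0.0448 with the replicate block). Prss2, next to Prss1 at the end, and Try10, next to Prss3, had negative log2 fold changes.

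**Figure D3:**
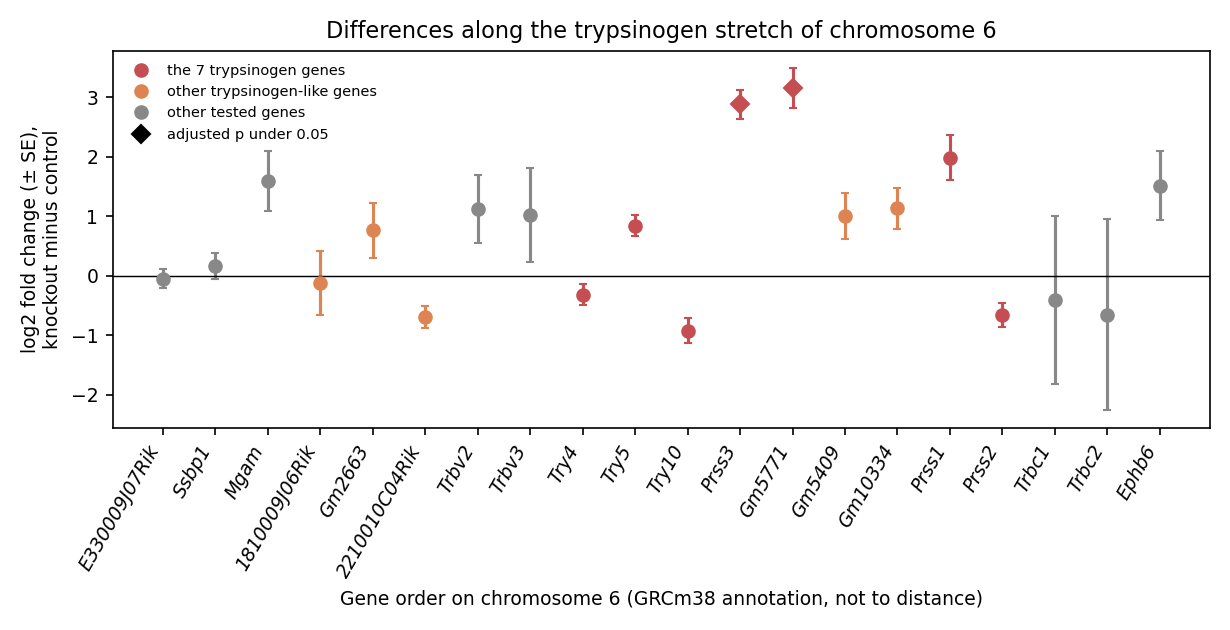
Log2 fold change (knockout minus control, ± SE) of the tested genes in their order along the trypsinogen stretch of chromosome 6, without distances. Diamonds mark an adjusted p under 0.05 in edgeR, which only Prss3 (2.88) and Gm5771 (3.16) reached, and the 5 consecutive genes from Prss3 to Prss1 all lie above 0.

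On the far side of the receptor segments, 2210010C04Rik was as abundant as Prss2 in CPM per gene, with 55807 CPM ± 7318 for control (SD, n = 3) against 34649 CPM ± 4992 for knockout. Its log2 fold change was -0.69 (SE 0.19, Benjamini-Hochberg adjusted p = 0.126, edgeR), beside -0.66 for Prss2. Gm2663 and 1810009J06Rik were near 1 CPM, with log2 fold changes of 0.77 (adjusted p = 0.454, edgeR) and -0.12 (adjusted p = 0.942). None of the 5 relatives passed the edgeR test; 3 had an unadjusted p under 0.05, beside 16.7% of all tested genes, and DESeq2 called 1 higher and 1 lower, beside 3.72% of all genes in either direction.

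Because the genes are so alike, where a read was placed bears on every value above. In tables of this layout, reads that fit several places equally well are left out of every gene's count. Such reads made up 25.98%, 28.4% and 27.3% of all reads in the controls against 21.6%, 24.1% and 22.5% in the knockouts, and the groups did not overlap (exact permutation test, two-sided, p = 0.1, the smallest possible). The tables do not show which genes those reads came from, and their part in the trypsinogen values was not tested.

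How much of each transcript can be told from the rest was read from the annotated transcripts, by cutting each into overlapping windows of 50, 100 and 150 bases and looking for the same letters in another gene. The read length is not given in the sources used here. At 100 bases every window of Prss2 was its own. The unique share was 88.4% for Try10, 78.2% for Prss1, 74.5% for Gm5771, 74.4% for Try5 and 69.8% for Try4. Prss3 had the lowest, 55.0%, and its shared windows were those of Gm10334 (325 windows, 44.95%), whose coding sequence is 99.1% identical. Of the Prss3 windows, 98 (13.6%) also occurred in Gm5771 and 74 (10.2%) in Prss1, and Gm5771 shared 94 (13.4%) with Prss1. The Prss3 coding sequence was 96.2% identical to that of Gm5771. Try4 and Try5 shared 180 windows (25.6%) with each other.

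For the minor members a further question is how far they resemble the abundant ones. At 100 bases, no window of Prss1, Prss3 or Gm5771 was identical to one in Prss2, Try4 or Try5. Allowing 2 mismatches, 17.7% of Prss1 windows, 10.7% of Gm5771 windows and 7.75% of Prss3 windows had a match there. At 50 bases the picture differed: 14.9% of Prss1, 10.1% of Gm5771 and 3.62% of Prss3 windows were identical to one in those genes, and 45.9%, 38.7% and 36.6% had a match within 2 mismatches. Of the 3 abundant genes, Try5 was the 1 with higher CPM in knockout, and Prss2 and Try4 had lower means. How many reads of an abundant gene were placed on a minor gene, or were exchanged among the minor genes, was not tested. The strand columns bear on a different question, since reads that fit several places are left out of every gene's count. They do not show how reads were placed among near-identical copies. Reads seen only when strand was used made up at most 0.0842% for Prss2, 0.0882% for Try4, 0.449% for Try5, 0.826% for Prss3 and 1.96% for Try10. They were 1.19% to 9.41% for Gm5771 and, as given above, far more for Prss1.

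**Figure D4:**
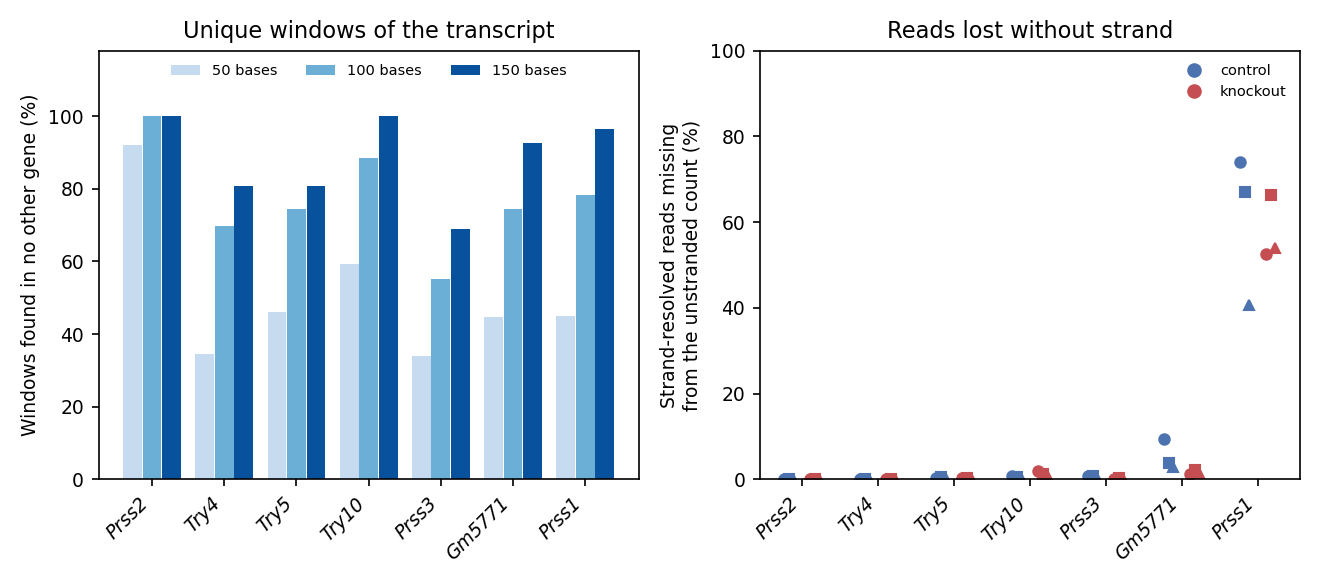
Left, the percent of each transcript's windows of 50, 100 and 150 bases that occur in no other annotated gene. Right, the percent of strand-resolved reads of each gene that are missing from its unstranded count, per library (blue control, red knockout; circle, square and triangle for replicates 1, 2 and 3). Prss2 is unique at 100 bases and Prss3 is 55.0% unique. For Prss1 alone, 40.8% to 74.0% of the strand-resolved reads are missing from the unstranded count.

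The sequences just upstream of the transcription starts are shown for the members that passed the test, Prss3 and Gm5771, and for the abundant Prss2 and Try4, which did not. They are the 250 bases before the start from RefSeq's GRCm38.p6 annotation, on the strand of the gene. Capitals mark 4 sets of letters, none of which overlapped another: the TATA box TATAAA on the gene's strand and, on either strand, the E-box CACCTG, another E-box spelled CAGCTG and the pyrimidine run TTTCCC. The acinar PTF1 complex binds an E-box together with a pyrimidine-rich box. A match is a description of letters and not a bound site.
Prss3, chr6:41377614-41377863, minus strand: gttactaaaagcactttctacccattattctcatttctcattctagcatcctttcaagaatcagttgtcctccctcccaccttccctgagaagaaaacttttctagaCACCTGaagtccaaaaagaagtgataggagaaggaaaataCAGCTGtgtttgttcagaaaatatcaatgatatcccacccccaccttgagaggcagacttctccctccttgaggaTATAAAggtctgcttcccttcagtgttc
Gm5771, chr6:41392106-41392355, plus strand: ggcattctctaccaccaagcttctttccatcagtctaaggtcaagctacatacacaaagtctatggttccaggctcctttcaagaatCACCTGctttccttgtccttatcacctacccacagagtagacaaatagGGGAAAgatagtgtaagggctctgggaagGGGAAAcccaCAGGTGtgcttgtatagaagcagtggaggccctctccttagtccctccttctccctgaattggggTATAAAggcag
Prss2, chr6:41521526-41521775, plus strand: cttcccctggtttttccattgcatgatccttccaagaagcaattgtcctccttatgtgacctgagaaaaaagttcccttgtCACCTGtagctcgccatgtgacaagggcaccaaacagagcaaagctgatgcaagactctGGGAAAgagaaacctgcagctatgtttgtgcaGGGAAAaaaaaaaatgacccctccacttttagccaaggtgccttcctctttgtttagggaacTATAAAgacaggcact
Try4, chr6:41302022-41302271, plus strand: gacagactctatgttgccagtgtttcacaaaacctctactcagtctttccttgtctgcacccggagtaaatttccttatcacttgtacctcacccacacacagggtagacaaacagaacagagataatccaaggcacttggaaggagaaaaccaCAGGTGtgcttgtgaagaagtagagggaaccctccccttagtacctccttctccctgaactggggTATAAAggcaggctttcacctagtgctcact
Entries were found for 5 members, which besides these 4 include Prss1, and not for Try5 and Try10. All 5 held TATAAA, found in 7.59% of 32851 promoters of the same length, and all 5 held CACCTG, found in 17.2%. CAGCTG, found in 13.0% of promoters, occurred once in Prss3 and in no other member, and Gm10334 had 2. TTTCCC, found in 21.9%, occurred at 2 places each in Prss1, Prss2 and Gm5771 and not in Prss3 or Try4. None of these 4 sets of letters separated the members with higher CPM in knockout from those with lower. The TATAAA lay 28 bases before the annotated start in Prss3 and 31 in Prss1 and Try4, but 16 in Prss2 and 11 in Gm5771, so the annotated starts are not equivalent. The Prss1 and Gm5771 sequences matched at 226 of 230 aligned bases (98.3%) and those of Prss3 and Gm10334 at 226 of 233 (97.0%). The Prss3 sequence was 54.6% identical to that of Gm5771, the other member that passed the test.

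The genes that act on trypsinogen were read from a list of 13 activators, degraders, inhibitors and a receptor. Of these, 7 passed the filter on low counts, and none passed the edgeR test; 2 had an unadjusted p under 0.05, beside 16.7% of all tested genes, and DESeq2 called 2 lower, beside 3.72% of all genes in either direction. Tmprss15, which encodes enteropeptidase and is made in the duodenum, had 0 reads in all 6 libraries. Ctsb, whose cathepsin B can activate trypsinogen inside the cell, gave means of 81.0 CPM ± 9.44 (SD, n = 3) for control and 85.1 CPM ± 14.1 for knockout. Ctsl, whose product cleaves trypsinogen to an inactive form, averaged 86.8 CPM ± 11.8 and 67.5 CPM ± 15.3, and Ctsd 53.8 CPM ± 7.70 and 58.7 CPM ± 5.68. The groups of these 3 overlapped. F2rl1, the protease-activated receptor that trypsin cleaves, had a log2 fold change of 0.69 (SE 0.36, Benjamini-Hochberg adjusted p = 0.388, edgeR).

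Spink1, Serpini2 and Ctrc, whose products restrain trypsin or degrade trypsinogen, had lower TMM CPM in every knockout library than in any control. As shares of all gene counts, the groups of Spink1 and Serpini2 overlapped. None of the 3 passed the edgeR test without the block. Of all tested genes, 11.0% were lower in knockout without overlap, and 2.58% were called lower with the block. With library totals the log2 fold changes of the 3 were -0.27, -0.24 and -1.71, and with sex as a covariate -0.41, -0.47 and -1.94. Spink1, the trypsin inhibitor of the granule, stood at 701, 1074 and 793 CPM in the controls against 531, 679 and 373 CPM in the knockouts (log2 fold change -0.70, SE 0.26, Benjamini-Hochberg adjusted p = 0.228, edgeR, and 0.0484 with the block). Serpini2, a serine protease inhibitor of the pancreas, gave means of 1098 CPM ± 169 (SD, n = 3) for control and 693 CPM ± 93.8 for knockout (-0.66, SE 0.19, adjusted p = 0.138, edgeR, and 0.0499 with the block). Ctrc, whose product chymotrypsin C degrades trypsinogen, stood at 3381, 4801 and 3485 CPM in the controls against 252, 225 and 2168 CPM in the knockouts. Knockout replicate 3 stood apart from the other knockouts, near the controls. The log2 fold change of -2.14 (SE 1.04) had an adjusted p of 0.396 in edgeR, and the adjusted p was 0.332 with the block.

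The zymogens that trypsin activates were compared as a list of 12 chymotrypsinogens (Ctrc among them), proelastases, procarboxypeptidases and others. None passed the edgeR test; 7 had an unadjusted p under 0.05, beside 16.7% of all tested genes, and DESeq2 called 6 lower, beside 3.72% of all genes in either direction. With TMM scaling all 12 had negative log2 fold changes, with a median of -0.56 beside 0.02 over all tested genes and 0.84 for the trypsinogens, and in 9 the groups did not overlap, beside 11.0% of all tested genes that were lower without overlap. With library totals 7 were negative and 5 positive, Ctrb1, Cpa1 and Clps among the latter, with a median of -0.13 beside 0.43 over all tested genes. With the replicate block 2 passed, both lower, beside 2.58% of all tested genes: the elastase Cela2a (-1.005, SE 0.19, adjusted p = 0.0522 in edgeR without the block, 0.0109 with it and 0.0223 with library totals) and the carboxypeptidase Cpb1 (-0.76, SE 0.18, 0.0884 and 0.0320). The log2 fold changes of Prss2, Try4 and Try10 lay in the range of this list with TMM scaling, and those of Prss3, Gm5771, Prss1 and Try5 outside it. That difference between the lists was not tested.

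Among the transcription factors that bind acinar promoters, Rbpjl, a subunit of the PTF1 complex, gave means of 214 CPM ± 56.8 (SD, n = 3) for control and 504 CPM ± 145 for knockout (log2 fold change 1.24, SE 0.26, Benjamini-Hochberg adjusted p = 0.0685, edgeR, and 0.00203 with the block). Its partner Ptf1a averaged 10.7 CPM ± 3.30 and 7.32 CPM ± 2.03 (-0.55, SE 0.28, adjusted p = 0.374 in edgeR and 0.0459 with the block, and a log2 fold change of -0.11 with library totals and -0.02 with sex as a covariate). Whether either bears on the trypsinogen genes was not tested.

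Across the 6 libraries the members fell into a set that varied together and a set that varied against it, as a description over 3 libraries of each group that share their group difference. In log2 CPM, Pearson's r was 0.99 for Prss3 with Gm5771, 0.96 for Prss1 with Gm5771 and 0.95 for Prss3 with Try5. It was 0.96 for Prss2 with Try10 and -0.86 for Prss3 with Try10. How far reads misplaced between near-identical members add to these correlations was not tested. The non-member genes most like each member, out of 10362, were Nkx2-2 and Car9 for Prss3 (r = 0.994 and 0.993), Rara and Rhov for Gm5771 (0.997 and 0.994) and Nav1 and Cabp1 for Prss1 (0.987 and 0.983). For the abundant members they were Hagh and 2210010C04Rik for Prss2 (0.998 and 0.997), Psmc4 and Alg3 for Try4 (0.991 and 0.988) and Rgs11 and Tubgcp3 for Try5 (0.999 and 0.996). For Try10 they were A430005L14Rik and Slc25a38 (0.997 and 0.995). These are the highest of many correlations over 6 libraries and are given with no test.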

How the data were processed

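RNA sequencing libraries of 3 control and 3 Trip12 knockout preparations of mouse acinar cells were compared. The authors deposited whole-number read counts per gene, not normalised, in 1 unstranded column and 2 strand columns. Per the labels' protocols, RNA was poly-A enriched and primed with random hexamers. The submitters' processing notes name STAR 2.7.10a and the build GRCm39 without saying which step used them, and the annotation is not given in the sources used here. Rows that name no gene (reads unmapped, mapped to several places, outside genes or ambiguous) stayed out of library sizes, and their shares are given where they bear on a value. The first strand held 50.1% to 50.3% of stranded counts, so the unstranded column was used.

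Symbols came from GENCODE M21 (GRCm38), which matched 52133 of 55414 identifiers (94.1%). The members, the gene lists and the rule for named genes (all members, genes of the lists, Trip12, and the 2 most correlated protein-coding genes with a mean of at least 1 CPM per member) were chosen with earlier results of these data known. Counts were tested with edgeR 4.0.16 in R 4.3.3 (filterByExpr, TMM, robust quasi-likelihood F test) and Benjamini-Hochberg adjustment over 13115 genes, calling an adjusted p under 0.05. The standard error is the log2 fold change divided by the square root of F. CPM values use TMM library sizes, so that their sum differs between libraries, and log2 CPM uses a prior count of 2. Single shares were compared by exact permutation with SciPy 1.17.1. Promoters were aligned with Biopython 1.88.

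The preparations are numbered 1 to 3 in both groups. Deviations from the group means correlated at 0.63, 0.455 and 0.285 in same-numbered pairs and at -0.496 to 0.21 in others. The numbers were used as a block in an alternative fit, and the main test does not use them. In pairs 2 and 3 a female control is set against a male knockout, so the block does not separate group from sex there. The pairing rests on this check only, since the meaning of a number is not given in the labels. Every pair of libraries differed by more than sampling noise (lowest chi-square per degree of freedom 29.0). The test was checked on counts simulated with the means and spread of these data. It recovered 43% of 100 genes set to differ by a log2 fold change of 1, up or down. Of 100 set to differ by 3 it recovered 100%, and 13 unchanged genes were called. Differences of 1 or less can therefore be missed. Binomial intervals cover counting error only. DESeq2 1.42.0, other scalings, filters, strand columns, the replicate block and leaving out each library were tried, and the sex covariate and the summed strand columns were chosen after seeing the data.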

Additional observations from a re-analysis of the deposited data

How the results depend on the processing

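Prss3 kept its direction and its call under all 18 alternatives, though the sex covariate sets the male control alone against the knockouts. Its log2 fold changes were 2.69 to 3.07 when 1 library was left out. The other results moved as follows. The count of 124 called genes became 1528 with library totals (1451 higher and 77 lower), 850 with no filter, 210 where every library had to hold at least 10 counts, 784 with the replicate block, 21 with the sex covariate and 530 with DESeq2. Leaving out 1 library gave 20 to 461 calls: 461, 20 and 54 without control replicates 1, 2 and 3 in turn, and 27 and 24 without knockout replicates 1 and 3. The 461 came from the fit in which group and sex coincide.

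Gm5771 lost its call with the sex covariate (3.48) and without control replicate 2 or 3, over a range of 2.72 to 3.33. Calls were gained elsewhere, and the cause was not tested. Prss1 was called with library totals (2.45), no filter (1.98), the first strand column (1.82), the second (1.94), both summed (1.87) and DESeq2 (1.95), with 1.67 to 2.39 over the fits without 1 library. Try5 was called with library totals (1.25), no filter (0.84), at least 10 counts (0.86), the first strand column (0.84), the replicate block (0.85) and DESeq2 (0.81), and ran from 0.73 to 0.95. Try10 was called with no filter (-0.92), the replicate block (-0.91) and DESeq2 (-0.95), ran from -1.11 to -0.80, and was not called with the sex covariate (-0.50) or library totals (-0.48). Prss2 was called with DESeq2 (-0.69), ran from -0.81 to -0.58, and was smaller with the sex covariate (-0.37) and library totals (-0.23). The replicate block changed no other member's call. Try4 turned positive with library totals (0.10) and ran from -0.43 to -0.19.

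The family's share turned to -8.73 per 100 counts outside the enzyme list, and ran from 0.449 to 1.19 percentage points over all gene counts. The Try4 share of the family ran from -3.14 to 1.72 percentage points and turned positive without control replicate 1, control replicate 2 or knockout replicate 2. The 54 to 122 unstranded control reads of Prss1 limit its precision, and its strand columns include reads that strand cannot assign.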
